A study of Homo sapiens with 12 samples.

Results

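The RNAs described here carry the systematic symbol LINC and a number, the name given to long noncoding RNAs that have no descriptive name, and were selected on their measured abundance. A gene was a member if its raw counts, summed over the 12 libraries of the series, reached 500. Of 57500 genes in the count table, 1869 had a LINC symbol. Of these, 610 had 0 counts in all 12 libraries, 1117 had a total below 500, and 142 were members, which held 82.9% of all LINC counts. Because the total was the criterion, the abundance of the members is a description and is not tested.

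The study measured total RNA by sequencing after removal of ribosomal RNA and DNase treatment, in 3 established cancer cell lines. The colorectal cancer lines SW480 and SW620 came from 1 patient, SW480 from the primary tumour and SW620 from a metastasis, and were grown untreated in DMEM. The ovarian cancer line PEO4 was grown in RPMI 1640, either as a control or with TGF-β at 10 ng/mL for 6 days. Both media held fetal bovine serum (10%) and penicillin with streptomycin (1%), and the cells were kept at 37 °C and 5% CO2. The 4 groups (SW480, SW620, untreated PEO4 and TGF-β-treated PEO4) had 3 libraries each, labelled as biological replicates. The labels do not say that these were separate cultures, so p-values measure the spread between these samples. PEO4 and the SW lines differed in tissue, patient and medium together, so these cannot be told apart in any comparison between them. Each line stands for 1 patient.

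Long intergenic noncoding RNAs are transcribed by RNA polymerase II from their own promoters, are often spliced and polyadenylated, and do not encode a known protein. Some act in the nucleus on the transcription of nearby genes, some bind proteins or microRNAs, and for most no function is known. They are known for lower abundance and narrower tissue distribution than messenger RNAs. TGF-β signals through receptor kinases to SMAD transcription factors and changes both coding and noncoding transcription.

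The promoters of 6 members are printed because the main results turn on their genes. Each is 300 bases, from 250 before to 50 after the RefSeq start of the gene, on the strand of the gene, from RefSeq on GRCh38.p14. LINC00173 (chr12:116533172-116533471, plus strand) was the member restricted to SW480, and LINC00261 (chr20:22578593-22578892, minus strand), LINC00460 (chr13:106376314-106376613, plus strand) and LINC02058 (chr5:92939737-92940036, minus strand) were those restricted to SW620. LINC02167 (chr16:35746302-35746601, plus strand) and LINC01547 (chr21:44939864-44940163, minus strand) rose and fell with TGF-β in PEO4. Capitals mark each CG pair, except in LINC00460, where they mark the AP-1 box TGANTCA.
LINC00173: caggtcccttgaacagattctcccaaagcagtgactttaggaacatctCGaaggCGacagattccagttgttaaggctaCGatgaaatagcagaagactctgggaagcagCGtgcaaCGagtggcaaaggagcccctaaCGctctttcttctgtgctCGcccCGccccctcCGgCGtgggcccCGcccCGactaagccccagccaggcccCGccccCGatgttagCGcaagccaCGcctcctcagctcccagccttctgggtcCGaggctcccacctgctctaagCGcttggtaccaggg
LINC00261: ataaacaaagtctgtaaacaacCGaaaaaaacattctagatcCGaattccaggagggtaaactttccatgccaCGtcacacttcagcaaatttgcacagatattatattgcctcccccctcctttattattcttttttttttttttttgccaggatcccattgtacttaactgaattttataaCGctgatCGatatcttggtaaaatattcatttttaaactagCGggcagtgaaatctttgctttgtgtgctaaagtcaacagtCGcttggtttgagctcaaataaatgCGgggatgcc
LINC00460: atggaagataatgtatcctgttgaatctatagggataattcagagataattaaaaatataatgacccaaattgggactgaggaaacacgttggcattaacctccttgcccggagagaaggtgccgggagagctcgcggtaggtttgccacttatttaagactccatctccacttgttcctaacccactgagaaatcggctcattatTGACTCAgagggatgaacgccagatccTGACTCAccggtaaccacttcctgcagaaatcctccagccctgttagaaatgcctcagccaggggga
LINC02058: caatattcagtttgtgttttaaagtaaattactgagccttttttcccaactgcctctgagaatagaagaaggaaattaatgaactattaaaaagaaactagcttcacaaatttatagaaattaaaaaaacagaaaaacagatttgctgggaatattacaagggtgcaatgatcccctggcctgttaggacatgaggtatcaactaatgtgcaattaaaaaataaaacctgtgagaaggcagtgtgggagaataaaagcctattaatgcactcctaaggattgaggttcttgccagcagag
LINC02167: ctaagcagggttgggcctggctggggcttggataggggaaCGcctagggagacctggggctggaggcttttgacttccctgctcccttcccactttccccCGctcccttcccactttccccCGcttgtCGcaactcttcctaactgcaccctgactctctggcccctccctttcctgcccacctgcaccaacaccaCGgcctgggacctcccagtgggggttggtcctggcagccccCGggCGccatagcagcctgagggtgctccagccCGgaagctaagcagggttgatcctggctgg
LINC01547: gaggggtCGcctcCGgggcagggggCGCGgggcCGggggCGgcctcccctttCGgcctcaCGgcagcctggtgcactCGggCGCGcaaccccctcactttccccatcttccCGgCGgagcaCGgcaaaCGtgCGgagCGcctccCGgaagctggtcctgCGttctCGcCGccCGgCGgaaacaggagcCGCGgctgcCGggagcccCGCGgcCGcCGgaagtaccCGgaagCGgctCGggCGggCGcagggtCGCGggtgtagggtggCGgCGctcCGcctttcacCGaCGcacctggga

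The promoters differed widely in CG pairs, the target of DNA methylation and the mark of CpG islands. LINC01547 had 42 and LINC00173 had 18, LINC00261, LINC00460 and LINC02167 had 8 each, and LINC02058 had 0. A RefSeq promoter was found for 104 of the 142 members, with a median of 13 CG pairs, against 26 in 10148 protein-coding genes with at least 500 counts and 14 in all 35116 promoters. The 15 line-restricted members with a promoter had a median of 8 and the 89 others a median of 14. Line-restricted coding genes were also lower than coding genes as a whole, with a median of 18 in 472 genes. For 61 of the 104 members the RefSeq start lay within 100 bases of the GENCODE start. Among the printed genes it lay 3284 bases away for LINC02167 and 2087 bases away for LINC00460. The box TGANTCA, which reads alike on both strands, was found 2 times in the LINC00460 promoter, in 12.5% of member promoters and in 7.71% of all promoters. The SMAD box CAGAC, searched on both strands, was found in 38.5% of member promoters and in 45.3% of all promoters. It was in the LINC00261 promoter and not in those of LINC02167 or LINC01547.

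By the GENCODE 29 annotation on GRCh38, which lists all 142 members, 105 were lincRNAs, 17 processed transcripts, 8 antisense RNAs, 7 unprocessed and 2 unitary transcribed pseudogenes, 2 RNAs from bidirectional promoters and 1, LINC00854, protein coding. The symbol did not always mean an intergenic position, since 29 members overlapped the body of a protein-coding gene, and 60 shared exon bases with another gene, 26 of them with a gene on the same strand. RefSeq lists 18 of the members under another name. LINC01578 is CHASERR, which lies beside CHD2 and limits its expression, LINC00284 is NRAD1, and LINC00514 is the protein-coding GREP1. For 13 members, among them LINC01410, transcripts of other genes covered at least 50% of the longest transcript at 97% identity or more, so their counts are uncertain. The strand setting of the counting is not given in the sources used here, so reads of a member and of an overlapping opposite gene cannot be told apart.

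The libraries held 14531420 to 22028956 gene counts, and the members took 0.116% to 0.210% of them. In each SW line the second replicate had the highest share, at 0.167% in SW480 and 0.210% in SW620. The second replicate was the highest of its group in both SW lines for 64 of 129 members, or 49.6%, against 29.6% of all genes tested, and 17 members were over 2-fold higher in the second than in the third replicate in both lines. Sequence of PEO4 type made up an estimated 1.26% of the third SW620 library, from 16 genes specific to PEO4, and 0.0407% to 0.362% of the other SW libraries. The summed level of 5 colorectal markers was 37.5 to 66.8 CPM (gene counts scaled to library size) in SW480, 244 to 278 CPM in SW620 and 0.448 to 2.35 CPM in PEO4 control. VIL1 made up most of the SW620 sum, with 3152 to 5542 counts, while CDX2 had 292 to 494 there and 319 to 412 in SW480. The summed level of 5 ovarian markers was 4373 to 7593 CPM in PEO4 control, 2248 to 3894 CPM with TGF-β and 76.2 to 122 CPM in the SW lines. MUC16 made up most of the PEO4 sums, with 104960, 124852 and 73015 counts in control and 64110, 33559 and 37383 with TGF-β. WT1 and EMX2 also had fewer counts with TGF-β. PAX8 did not fall, at 10041, 9591 and 10388 counts in control and 11577, 10319 and 10747 with TGF-β. SOX17 was not higher in PEO4, at 27 to 42 counts, than in the SW lines, at 39 to 74. Summed fibroblast and endothelial markers were higher in SW620, at 6.05 to 10.9 and 1.98 to 6.81 CPM, than in SW480, at 0.65 to 1.22 and 0.108 to 0.34 CPM. The fibroblast sum in SW620 was mostly LUM, with 102, 102 and 231 counts. DCN was also higher there, but COL1A2 had 1, 12 and 1 counts in SW620 and 7, 11 and 13 in SW480. The endothelial sum was mostly PECAM1, with 33, 95 and 51 counts in SW620, where CDH5 had 2, 4 and 0. Summed blood cell markers were at 1.47 to 13.8 CPM in SW620 and 1.36 to 1.89 in SW480. In PEO4 these 3 lists were at 0.434 to 6.28 CPM. The part of these markers in the results between lines was not tested. In bulk RNA, fewer cells with a transcript and less transcript per cell cannot be told apart.

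**Figure D1:**
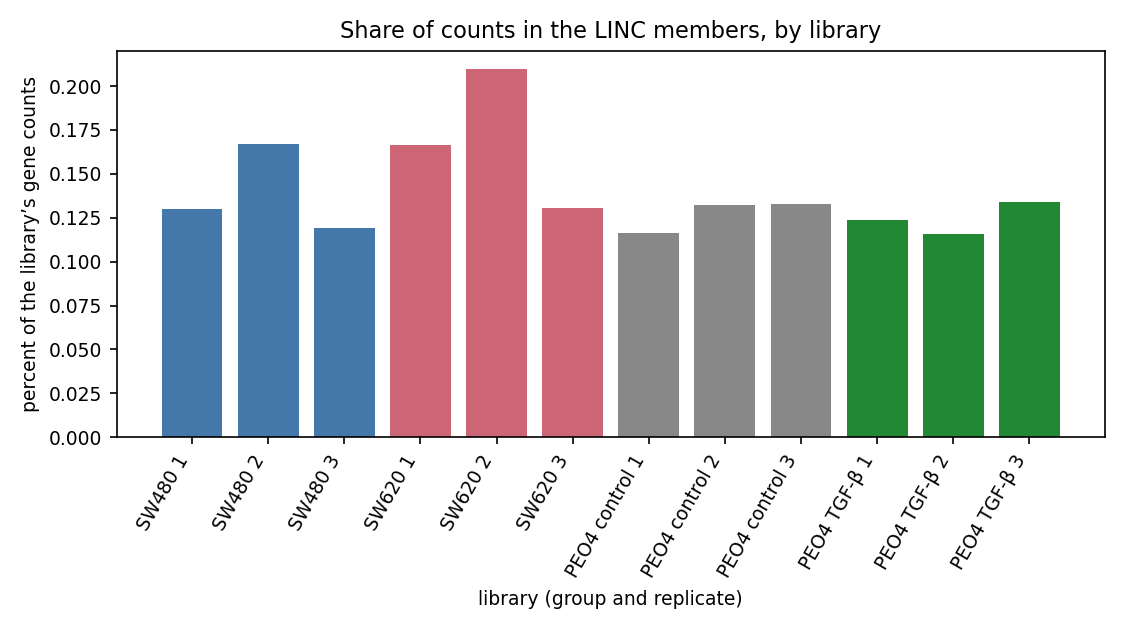
Percent of each library's gene counts that fell in the 142 LINC members (vertical axis) for the 12 libraries (horizontal axis, group and replicate); each bar is 1 library and the colour is the group. The second replicate is the highest bar in SW480 (0.167%) and in SW620 (0.210%), while the 6 PEO4 libraries lie between 0.116% and 0.134%.

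The 10 members with the most counts supplied 36.2% of the members' 314233 counts. LINC00963, described in prostate cancer, had the most, with 28309 counts. Its level was 111, 112 and 103 CPM in SW480, 124, 126 and 136 in SW620, 129, 124 and 163 in PEO4 control, and 107, 123 and 129 with TGF-β. All 12 libraries thus held it at similar levels, and it passed the test in neither comparison (edgeR quasi-likelihood test, adjusted p = 0.224 and 0.342). LINC01278 was also found in all groups, with means of 45.3 ± 1.42, 54.7 ± 5.02, 32.0 ± 4.12 and 31.5 ± 2.20 CPM (SD, n = 3) in SW480, SW620, and PEO4 without and with TGF-β. LINC01578, the CHD2 neighbour, ranged over groups from 23.2 ± 1.25 CPM in SW480 to 37.3 ± 2.68 in SW620, LINC00667 from 20.4 ± 2.71 to 34.7 ± 4.07, and LINC02210 from 24.5 ± 1.37 in SW620 to 42.5 ± 6.01 in PEO4 control (SD, n = 3).

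Others of the 10 were uneven. LINC00511, described in several carcinomas, had means of 79.8 ± 5.57 CPM in SW480 and 157 ± 1.83 in SW620, and 11.6 ± 7.26 and 13.0 ± 7.49 in PEO4 control and with TGF-β (SD, n = 3). Both PEO4 groups had their first replicate highest, at 19.9 and 21.6 CPM, over 2-fold above the other replicates. LINC00662 had the opposite order, with 9.73 ± 1.49 and 17.6 ± 1.91 CPM in SW480 and SW620, and 130 ± 14.9 and 117 ± 23.6 in PEO4 control and with TGF-β. LINC00665, LINC00649 and LINC02167 were confined further and are given with the line-restricted members. Per kilobase of exon, the levels in PEO4 control were 16.3 CPM per kb for LINC00662, 15.7 for LINC02167 and 10.5 for LINC00963, so the order by raw counts is not the order by level. With TGF-β they were 14.7, 49.9 and 9.12 CPM per kb. Of all 142, 86 averaged at least 1 CPM in all 4 groups, and 32 varied by less than 2-fold over the group means.

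A member was called line-restricted when its lowest library in a line was at least 10 times the highest of all other libraries, with values under 3 counts raised to 3. By this rule 23 of the 142 members (16.2%) were restricted, against 5.57% of the 14926 genes with at least 500 counts. PEO4 had 11 (7.75%, against 3.12% of those genes), SW480 had 1 (0.704%, against 0.502%), SW620 had 3 (2.11%, against 0.442%), and both SW lines together had 8 (5.63%, against 1.5%). Among protein-coding genes with at least 500 counts the share was 5.24%, and among other long noncoding genes it was 7.37%. Members had lower totals than coding genes with at least 500 counts, with medians of 1232.5 and 6875 counts. Among genes with 500 to 2000 counts the share was 15.4% of 104 members and 10.8% of 2437 coding genes, and above 2000 counts it was 18.4% of 38 members and 3.94% of 10469 coding genes.

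Among PEO4-restricted members LINC00665 had the most counts. It was at 71.0, 88.0 and 86.2 CPM in control, 72.0, 75.6 and 77.8 CPM with TGF-β, and 0.592 to 1.46 CPM in the 6 SW libraries, so its lowest PEO4 library was 48.6-fold above the highest SW library. LINC02474 followed with 25.9 to 53.7 CPM in PEO4 and at most 0.464 CPM in the SW lines, LINC00689 with 28.5 to 31.8 CPM against at most 0.789, and LINC00960 with 14.1 to 18.7 CPM against at most 0.278. LINC02167 ranged from 21.4 to 102 CPM in PEO4 and did not exceed 0.557 CPM in the SW lines. In LINC02167, LINC02474 and LINC00689 the highest SW library was the third SW620 replicate, the one with 1.26% PEO4-type sequence. That share of their PEO4 level corresponds to 16.2, 10.1 and 7.67 counts, and the library held 12, 10 and 17. With PEO4-type reads subtracted, 24 members were restricted, including all 23. The subtraction could only lower SW values, so no PEO4-restricted member could be lost by it. LINC00664, LINC00839, LINC00452, LINC01127, LINC01835 and LINC01914 completed the group at lower levels. LINC01547 fell just short, at 9.83-fold, with 27.0 to 47.6 CPM in PEO4 and 1.72 to 2.74 CPM in the SW lines.

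The 8 members shared by the SW lines were led by LINC00649, annotated antisense and sharing exon bases with the opposite-strand ATP5PO, a subunit of ATP synthase. In SW480 LINC00649 was at 75.2, 67.7 and 73.1 CPM, in SW620 at 57.3, 57.9 and 63.5, and in PEO4 at 0.401 to 1.09. The lowest SW library was 52.8-fold above the highest PEO4 library. Sequence of SW type, estimated from 34 genes specific to the SW lines, made up 0.714% and 0.722% of the third PEO4 control and TGF-β libraries and 0.149% to 0.374% of the others, and was not subtracted. At these shares the mean SW level of LINC00649 corresponds to 0.47 and 0.475 CPM in the third replicates, which held 0.828 and 1.09 CPM, and to 0.0982 to 0.246 CPM in the others, which held 0.401 to 0.922 CPM. LINC02432 had means of 30.6 ± 4.62 CPM in SW480 and 8.21 ± 3.32 in SW620 (SD, n = 3), and at most 0.247 CPM in PEO4. LINC01225, LINC00355 and LINC01819 were higher in SW620, at 23.6 ± 11.6, 18.8 ± 5.58 and 17.0 ± 2.97 CPM, than in SW480, at 8.67 ± 4.25, 3.62 ± 0.982 and 3.13 ± 0.458 CPM (SD, n = 3). All 3 passed the edgeR test between the lines (adjusted p = 0.0282, 0.000396 and 7.62e-05), but the LINC01225 values overlapped and its call was lost in 3 of 6 fits without 1 library (adjusted p up to 0.0935). LINC00491, LINC01748 and LINC02320 were the others.

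**Figure D2:**
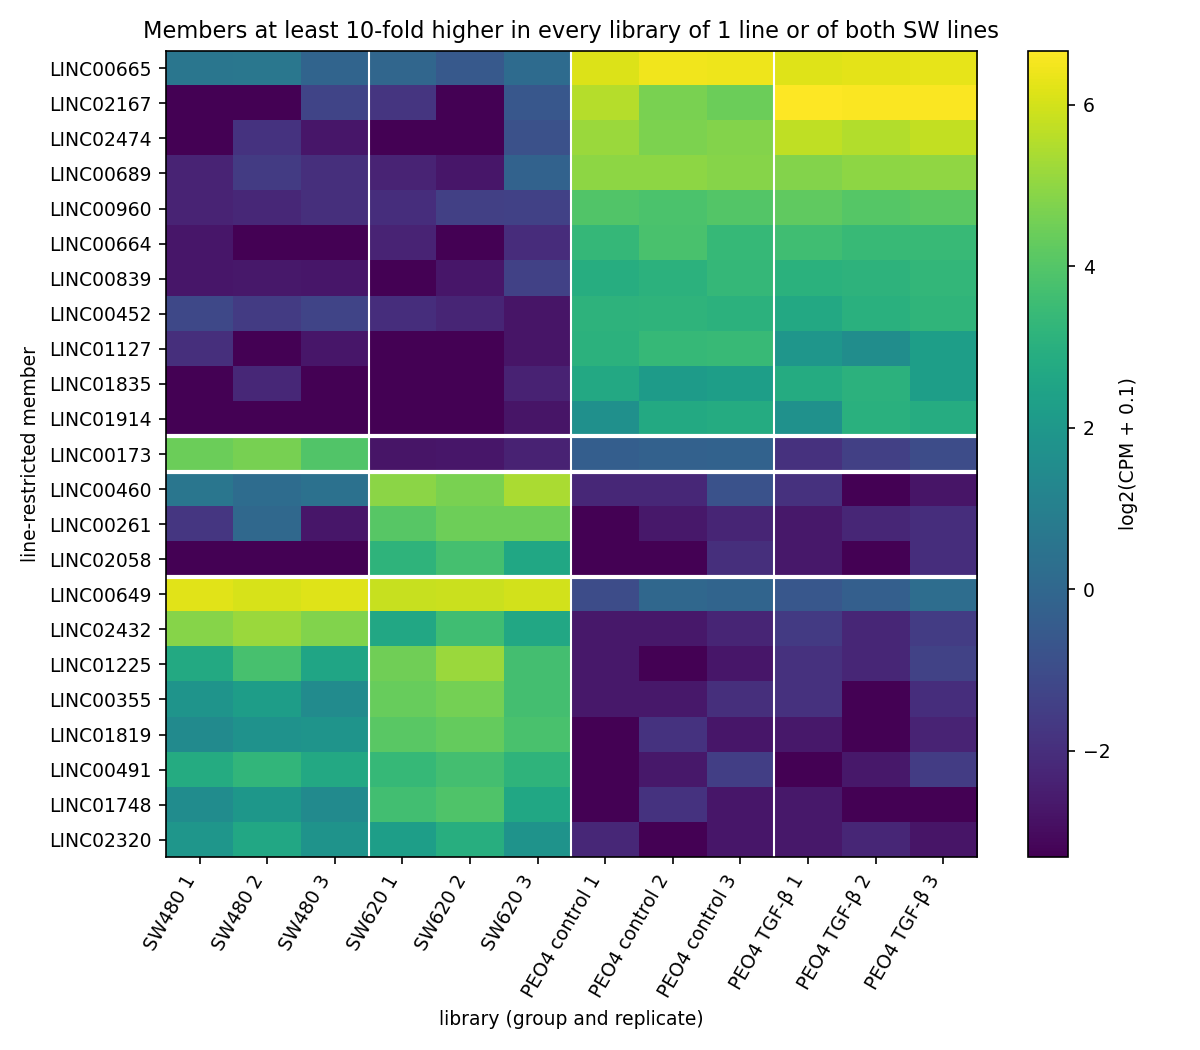
Level of the 23 line-restricted members (rows) in the 12 libraries (columns, group and replicate), coloured by log2(CPM + 0.1); white lines separate the groups and the kinds of restriction. From the top, 11 rows are bright in PEO4 only, 1 in SW480 only, 3 in SW620 only and 8 in both SW lines.

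The contrast of SW620 with SW480 sets the line from the metastasis against that from the primary tumour. Members differed often. The quasi-likelihood test of edgeR was used with Benjamini-Hochberg adjustment over all genes, at a threshold of 0.05. It called 57 of the 129 members tested (44.2%) and 30.5% of the 20941 genes tested. Of 14519 tested genes with at least 500 counts, the limit that members had to reach, 35.0% were called. In SW620, 31 members were higher (all genes 13.5%) and 26 lower (all genes 17.0%), and 46 of the 57 differed by at least 2-fold. Their replicate values did not overlap for 70 members (54.3%), against 43.9% of all genes. The median size of the log2 fold change was 0.74 for members, 0.53 for all genes tested and 0.46 for coding genes with at least 500 counts. The median standard error was 0.31 for members and 0.22 for those coding genes. Without the second replicate of both lines 58 members passed, and without the third 49.

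Higher members in SW620 included RNAs all but missing from SW480. LINC02058 was at 8.90, 13.3 and 6.08 CPM in SW620 and at 0 counts in all 3 SW480 libraries. With SW480 set to 3 counts per library, the difference was at least 53.8-fold (edgeR adjusted p = 9.53e-05). LINC01559 was at 19, 12.9 and 18.3 CPM in SW620 and 0, 0.175 and 0.154 CPM in SW480, at least 95.6-fold higher by the same floor (edgeR adjusted p = 1.46e-05). It was no SW620-restricted member, since PEO4 held 4.64 to 10.1 CPM. LINC00261, an endoderm RNA beside FOXA2, was at 16.8, 21.9 and 21.9 CPM in SW620 and 0.201, 0.934 and 0.0514 CPM in SW480 (log2 fold change 5.73 ± 0.59 SE, edgeR adjusted p = 0.000116). The groups were far apart in all 3 RNAs. GENCODE 29 lists a coding gene sharing 4779 exon bases on the same strand as LINC00261.

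LINC00460, described as raising migration in carcinoma cells, was at 30.2, 25.5 and 42.3 CPM in SW620, 1.41, 1.05 and 1.23 CPM in SW480 and at most 0.466 CPM in PEO4 (log2 fold change 4.74 ± 0.27 SE, edgeR adjusted p = 5.42e-06). LINC02404 was at 10.4, 12.1 and 10.3 CPM against 0.402, 1.11 and 0.771 CPM (3.87 ± 0.36). The SW480 and SW620 values of both RNAs were far apart. LINC01134, LINC01605 and LINC01876 had log2 fold changes of 3.33 ± 0.47, 3.19 ± 0.32 and 3.13 ± 0.67 (SE), with edgeR adjusted p from 0.000102 to 0.00711. Each of these had its highest SW620 value in the second replicate, 40.4, 15 and 22.1 CPM, and LINC01876 had only 5.52 CPM in the third.

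LINC00173, described in granulocyte development, was the lowest in SW620 relative to SW480. It was at 21.3, 24.8 and 15.6 CPM in SW480 and at 1, 1 and 2 counts in SW620, at least 128-fold lower by the 3-count floor (edgeR adjusted p = 2.67e-06). PEO4 held 0.165 to 0.776 CPM. LINC00861 was at 47.3, 84.3 and 33.5 CPM in SW480 and 0.487, 1.13 and 0.835 CPM in SW620 (log2 fold change -6.05 ± 0.45 SE, edgeR adjusted p = 1.88e-05), and its SW480 values were over 2-fold apart between the second replicate and the third. LINC01503, known from squamous carcinoma, was at 5.79, 4.38 and 6.38 CPM against 0.438, 0.161 and 0.371 CPM (-4.03 ± 0.43), and was higher than either in PEO4 control, at 14.9 ± 3.08 CPM (SD, n = 3). LINC00868, LINC00514, LINC00494, LINC01356 and LINC00899 had log2 fold changes of -3.45, -3.41, -3.15, -2.90 and -2.82, with edgeR adjusted p from 4.58e-05 to 0.00942. Of the 16 members named for their size of change, LINC00514 was lost from the calls when a single library was left out, in 1 of 6 such fits (adjusted p up to 0.0545), and the other 15 in none.

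**Figure D3:**
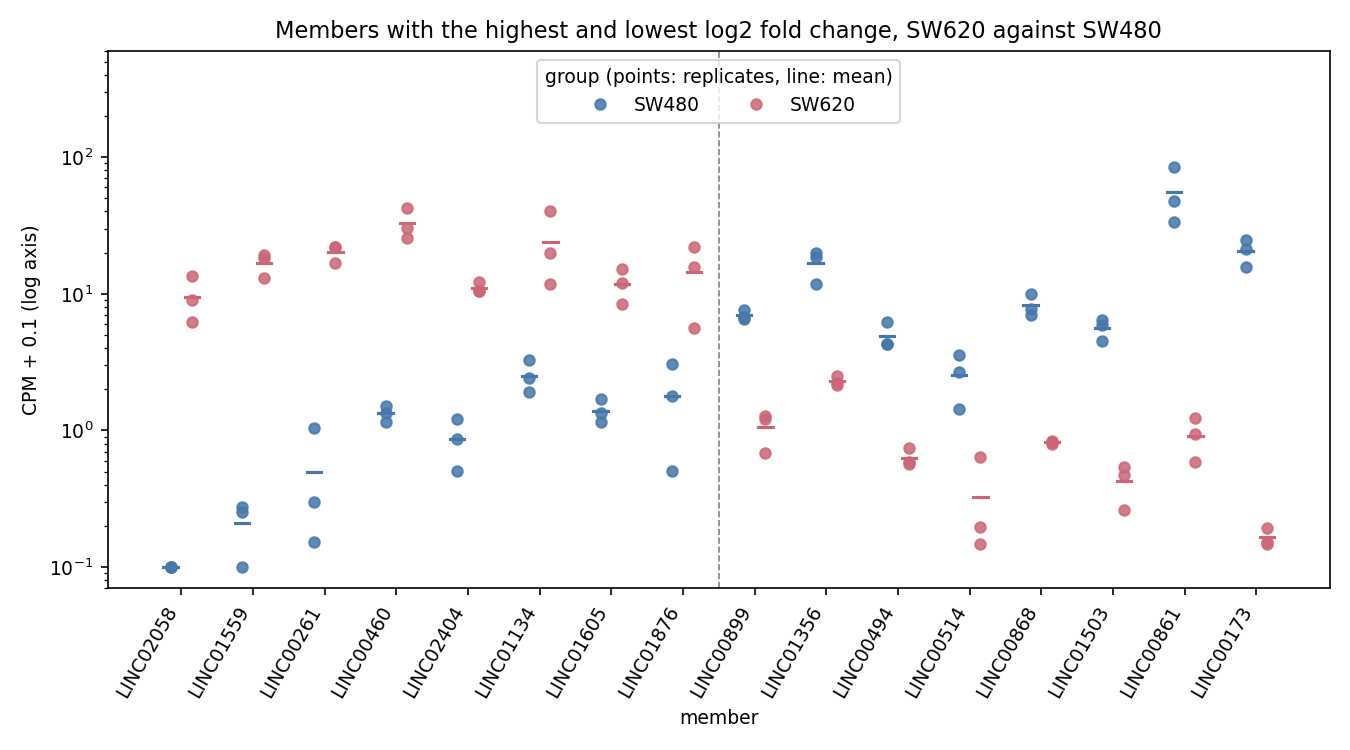
CPM + 0.1 on a log axis (vertical) for 8 members with the highest and 8 with the lowest log2 fold change of SW620 against SW480 (horizontal). They were taken among called members above a minimum level in the higher group whose replicate values did not overlap. Points are the 3 replicates of each group and lines are means. That the SW480 and SW620 points do not overlap for any of the 16 was a condition of their choice. LINC02058 lies at 0 CPM in all 3 SW480 libraries.

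A list of 20 LINC RNAs with a published role in cancer or development was used to describe the known ones. Of these, 10 were members, 8 had fewer than 500 counts and 2 were not among the symbols in the count table. Among 14 tested in the SW lines, 7 were higher and 2 lower in SW620 (median log2 fold change 0.62, against 0.03 over all genes tested, of which 13.5% were higher and 17.0% lower). Besides LINC00261, LINC00460 and LINC01503, given above, LINC00511 was higher at 1.00 ± 0.15, LINC00662 at 0.88 ± 0.19 and LINC01578 at 0.71 ± 0.15 (log2 ± SE, edgeR adjusted p = 0.00105, 0.0077 and 0.00597). LINC00467, repressed by MYCN in neuroblastoma, was at 6.47 ± 0.0329 CPM in SW480 and 10.1 ± 1.59 in SW620 (SD, n = 3; edgeR adjusted p = 0.0434), and lost its call in 5 of 6 fits without 1 library (adjusted p up to 0.147). LINC00941, reported to act on SMAD4 in colorectal cancer, was lower, at 8.75, 7.12 and 4.94 CPM in SW480 and 1.95, 1.99 and 1.58 CPM in SW620 (log2 fold change -1.89 ± 0.31 SE, edgeR adjusted p = 0.00179). GENCODE 29 lists a further entry, also named LINC00941, that shares 1250 exon bases with it on the same strand. The values given belong to the member entry alone. LINC01234, under the count threshold and named after its value was seen, was the seventh higher one at 1.82 (edgeR adjusted p = 0.00159). In PEO4, 9 of the list were tested with TGF-β and 0 passed in edgeR, with 2 at an unadjusted p under 0.05, while DESeq2 called 1 and limma-voom 0, against 2.26% of all genes called in edgeR. The 7 LINC symbols listed for small proteins were not among the symbols in the count table.

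Position was not used to choose the members, so the nearest protein-coding gene was read from the same fit. It lay within 100 kb of 118 members. For LINC00854, itself annotated protein coding, the nearest gene taken was its own entry, so that pair sets the gene against itself. Among called members, 34 had such a neighbour that was tested, and in 18 both were called, 15 of them in the same direction. Among 63 uncalled members with a tested neighbour, the neighbour was called in 15. Of all genes tested in this fit, 30.5% were called. Taking instead the nearest coding gene with at least 500 counts, both were called for 20 of 38 members, and 16 of these pairs had the same direction. Where the gene bodies did not overlap, these numbers were 18 of 33 and 14. Among 63 uncalled members with such a measured neighbour, overlapping or not, the neighbour was called in 17. Of all tested coding genes with at least 500 counts, 36.3% were called. Whether these pairs moved alike more often than other pairs of nearby genes was not tested.

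Of such measured genes, FOXA2 lay 2363 bp from LINC00261. FOXA2 is a pioneer transcription factor of endoderm, and was at 7.93 ± 1.81 CPM in SW480 and 87.3 ± 32.4 in SW620 (SD, n = 3; log2 fold change 3.48 ± 0.30 SE, edgeR adjusted p = 4.23e-05). LINC01559 lay 50775 bp from GRIN2B, a glutamate receptor subunit, which was at 11.9 ± 7.38 and 137 ± 38.0 CPM (3.55 ± 0.43). LINC01876 lay 69482 bp from the nuclear receptor gene NR4A2, which was higher at 2.04 ± 0.17. LINC01814 lay 85942 bp from ID2, an inhibitor of helix-loop-helix factors and a BMP target. LINC01814 was at 13.5, 21.6 and 13.3 CPM in SW480 and 2.29, 4.36 and 2.09 CPM in SW620 (-2.45 ± 0.35), and ID2 at 205 ± 46.7 and 28.6 ± 7.08 CPM (-2.82 ± 0.25; edgeR adjusted p = 0.000765 and 5.53e-05). In these 4 pairs the RNA and its neighbour moved in the same direction.

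Neighbours did not always move alike. LINC00868 was lower in SW620 while MGAT5B, a glycosyltransferase gene 6620 bp away, was higher at 2.09 ± 0.16 (edgeR adjusted p = 2.63e-05). LINC01225 was higher while SERINC2, 65405 bp away, was lower at -2.22 ± 0.22. A further pair moved in the same direction but by unlike amounts. LINC00467 was higher by 0.66 and its neighbour TRAF5, a signalling adaptor gene 7857 bp away, by 3.72 ± 0.20. The 12 members transcribed away from a coding gene on the opposite strand, with starts within 2 kb and bodies that do not overlap, included 0 restricted members, against 23 among the other 130. A further 6 had such a start within 2 kb but overlapped the coding gene, and 1 of them, LINC00649 beside ATP5PO, was restricted to both SW lines. For 2 of the 12 the coding partner was itself restricted to both SW lines, PRDM16 beside LINC00982 and SP5 beside LINC01124, which were named after their values were seen. LINC01134 starts 79 bp from C1orf174 and differed by 3.33 ± 0.47, while C1orf174 differed by 0.48 ± 0.20 and did not pass (edgeR adjusted p = 0.101). LINC00941 starts 216 bp from CAPRIN2 and was lower by -1.89, while CAPRIN2 was at -0.49 ± 0.29 (edgeR adjusted p = 0.254).

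**Figure D4:**
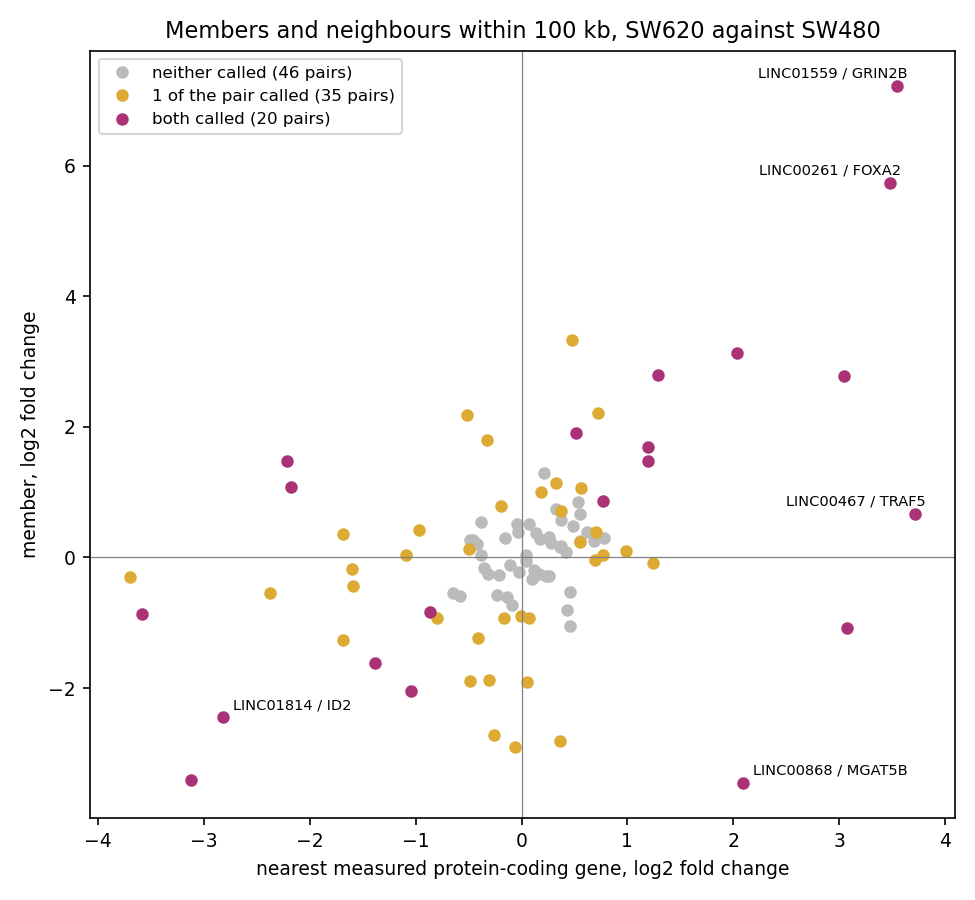
Log2 fold change of SW620 against SW480 for each member (vertical axis) and for its nearest protein-coding gene with at least 500 counts within 100 kb (horizontal axis); each of the 101 points is 1 pair, coloured by how many of the pair passed the test. Of the 20 pairs with both called, 16 lie in the quadrants of equal sign, among them LINC00261 with FOXA2 and LINC01814 with ID2, and LINC00868 with MGAT5B lies opposite.

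Treating PEO4 cells with TGF-β for 6 days changed few members. The same test called 4 of 122 members (3.28%) and 2.26% of 19064 genes, with 2 higher (all genes 1.27%) and 2 lower (all genes 0.991%). Of tested genes with at least 500 counts, 2.71% were called. Replicate values did not overlap for 23 members (18.9%), against 20% of all genes, so members moved about as often as other genes. The median size of the log2 fold change was 0.19 for members and 0.18 for all genes. Of the 4, 3 were among the 11 members restricted to PEO4. The share called among all genes restricted to PEO4 was not computed, so no preference for such genes can be read from these 3. The 1 of the 4 tested between the SW lines, LINC01547, did not pass there (edgeR adjusted p = 0.827).

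LINC02167 had the larger rise. It was at 47.1, 25.5 and 21.4 CPM in control and 102, 96.9 and 98.9 CPM with TGF-β (log2 fold change 1.64 ± 0.23 SE, edgeR adjusted p = 0.0109). The treated values were close together, the control values spread over 2-fold with the first replicate highest, and the groups did not overlap. LINC02167 lies at chr16:35743268-35756515 on the plus strand (GENCODE 29), and its exons share 55 to 85 bases each with 3 rRNA pseudogenes. No protein-coding gene lay within 100 kb. LINC02474, at chr1:221966341-221984964 on the plus strand, was at 36.2, 25.9 and 28.3 CPM in control and 52.8, 46.2 and 53.7 CPM with TGF-β (0.73 ± 0.13, edgeR adjusted p = 0.0218). Its nearest coding gene was DUSP10, a phosphatase of stress kinases 224165 bp away, at 17.0 ± 5.91 and 26.1 ± 5.52 CPM (SD, n = 3; log2 fold change 0.59 ± 0.23 SE, edgeR adjusted p = 0.238).

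LINC01127 and LINC01547 fell. LINC01127, at chr2:101962056-101987167 on the plus strand, was at 8.54, 10.3 and 10.7 CPM in control and 3.69, 2.92 and 4.74 CPM with TGF-β (log2 fold change -1.41 ± 0.22 SE, edgeR adjusted p = 0.0149), with no overlap. It lay 4677 bp from IL1R2, a decoy receptor of interleukin 1 with too few counts to test in PEO4, and 67367 bp from the kinase gene MAP4K4, which rose by 0.66 ± 0.14 (edgeR adjusted p = 0.0472). LINC01547, at chr21:44932814-44939913 on the minus strand, was at 45.6, 43.4 and 47.6 CPM in control and 27.0, 31.7 and 29.7 CPM with TGF-β (-0.66 ± 0.09, edgeR adjusted p = 0.00834). LINC01547 starts 97 bp from FAM207A, head to head across the CG-rich promoter printed above. FAM207A was at 25 ± 1.17 and 24.1 ± 1.57 CPM (SD, n = 3; -0.09 ± 0.09 SE, edgeR adjusted p = 0.68).

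These 4 calls depended on single libraries. Without the second control replicate 0 members passed in edgeR, with 11 at an unadjusted p under 0.05. Without the first control replicate 8 passed, without the first TGF-β replicate 2, and without the second TGF-β replicate 2. LINC01547 and LINC02167 each lost their call in 1 of 6 such fits (adjusted p up to 0.0512 and 0.0894), LINC01127 in 3 (up to 0.0912) and LINC02474 in 5 (up to 0.129), while all kept their direction.

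The next 6 members by p did not pass the test. Control and treated values did not overlap in any of them, but they were chosen by p in this same comparison. Of all genes tested, 20% had values that did not overlap. LINC00824 was at 4.93, 9.04 and 7.92 CPM in control and 1.16, 2.70 and 3.26 CPM with TGF-β (log2 fold change -1.65 ± 0.37 SE, edgeR adjusted p = 0.057). LINC00641 was at 12.5, 16.3 and 10.8 CPM against 8.53, 7.99 and 7.70 CPM (-0.74 ± 0.18, edgeR adjusted p = 0.0745). LINC00284 (NRAD1), described downstream of the retinoic acid enzyme ALDH1A3 in breast cancer, was at 4.41, 2.88 and 1.71 CPM against 4.84, 8.10 and 9.87 CPM (1.32 ± 0.36, edgeR adjusted p = 0.102). LINC01410, with its uncertain counts, had 0.39 ± 0.11, LINC00173 had -1.40 ± 0.45 and LINC01814 had -0.96 ± 0.33 (edgeR adjusted p = 0.109, 0.165 and 0.188). LINC01814 was at 1.66, 1.61 and 1.71 CPM in control and 1.10, 0.661 and 0.839 CPM with TGF-β, beside ID2, which fell by 1.5 on the log2 scale (edgeR adjusted p = 0.012). Among the members with the most counts, LINC00665, LINC00662 and LINC01578 had log2 fold changes of -0.16, -0.18 and -0.24, and none of the 3 passed.

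**Figure D5:**
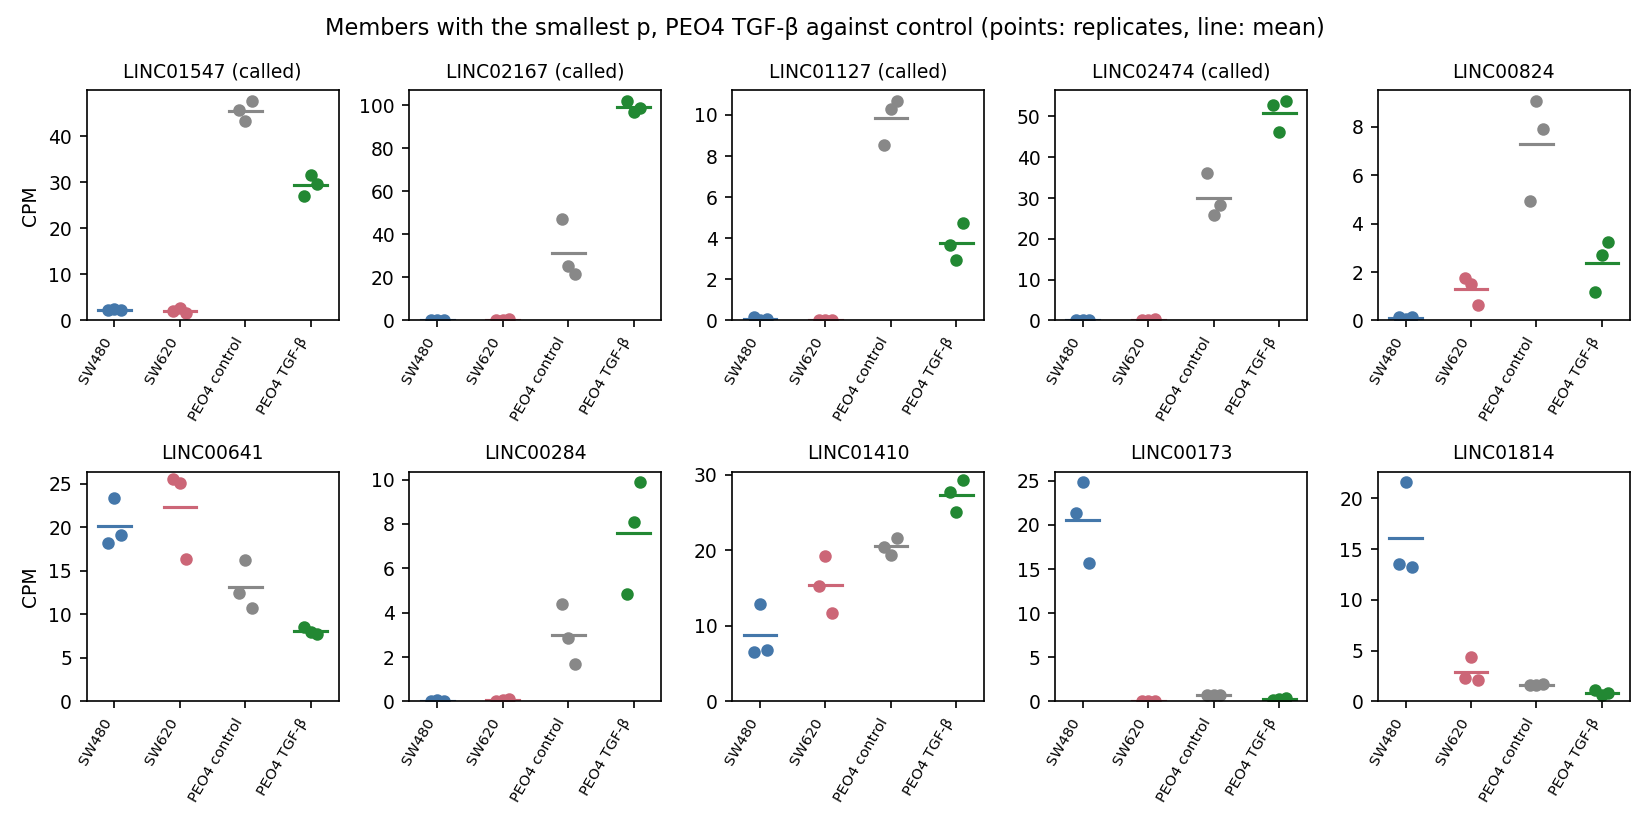
CPM (vertical axis, from 0) in the 4 groups (horizontal axis) for the 10 members with the smallest p for TGF-β against control in PEO4; points are the 3 replicates and lines are means. LINC01547 and LINC01127 are lower and LINC02167 and LINC02474 higher with TGF-β, and 3 of these 4 are near 0 in SW480 and SW620.

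The threshold of 500 counts cut through a continuous range. Just inside were LINC02315 with 514 counts, LINC02334 with 509 and LINC00868 with 507, and just outside LINC01719 with 488, LINC00239 with 486 and LINC02523 with 474. LINC02315 had 411 of its counts in SW620 and 97 in SW480, LINC00868 had 461 in SW480 and 44 in SW620, and LINC02523 had 468 in PEO4, so genes with most of their counts in 1 line lay on both sides of it.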

How the data were processed

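Total RNA depleted of ribosomal RNA was sequenced from 12 libraries, 3 in each of 4 groups. The deposited values are raw read counts per gene, made by the authors with Trimmomatic 0.36, STAR 2.5.2b and featureCounts of Subread 1.5.2 on GRCh38, per the submitters' processing notes, which also name DESeq2. The annotation release and strand setting are not given in the sources used here. Gene positions and types came from GENCODE 29, matched by gene ID, and promoters from RefSeq.

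A separate fit of 6 libraries was made for each comparison in R 4.3.3 with edgeR 4.0.16 (filterByExpr, TMM scaling, two-sided quasi-likelihood test across all genes, Benjamini-Hochberg adjustment over all genes tested, threshold 0.05). Levels are CPM, counts relative to the TMM-scaled totals of all 12 libraries. At the depth of these libraries a floor of 3 counts stands for the limit of detection, and it covers counting error only. Transcripts were compared with blastn 2.17.0. The fit was tested on simulated data. DESeq2 1.42.0, limma 3.58.1 and other scalings, filters and left-out libraries were alternatives.

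Members named were the 10 with most counts, the 8 highest and 8 lowest changes between the SW lines, those called with TGF-β and the next 6 by p, the up to 5 highest of each kind of restriction, 3 genes on each side of the 500-count threshold, and those with a published role. The changes between the SW lines were ranked only among called members above a minimum level in the higher group, with replicate values that did not overlap. LINC00824, called with a log2 fold change of 3.36, fell under that level. Members and lists were chosen with earlier results of these data known.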

Additional observations from a re-analysis of the deposited data

How the results depend on the processing

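Between SW620 and SW480, 41 to 58 members passed when 1 library was left out, and 45 to 78 under the other tests, scalings, filters and fits of the same members, except glmTreat against a 2-fold change, which called 36 (57 in the report). With TGF-β in PEO4, where 4 passed, 7 passed with DESeq2, 7 with no count filter, 1 with all 12 libraries in 1 model and 0 with glmTreat (3 at an unadjusted p under 0.05). Leaving out 1 library gave 0 to 8, with 0 without the second control replicate and 8 without the first. Among LINC genes with at least 250 counts 7 of 172 passed. Line-restricted members numbered 38 at a 5-fold ratio, 13 at a 20-fold ratio, 15 of those with at least 1000 counts, and 23 to 27 without 1 library. The cause of these differences was not tested beyond the change in the rule or the libraries. None of the 35 called fold changes of named members changed direction under the alternatives run, and 12 of the 34 uncalled ones did. Without 1 library, LINC01547 was at -0.28 to 0.0078 between the SW lines. In PEO4 the ranges were -0.45 to 0.75 for LINC00511, -0.19 to 0.35 for LINC00514, -0.23 to 0.34 for LINC00649, -0.11 to 0.049 for LINC00667, -0.071 to 0.021 for LINC00689, -0.16 to 0.29 for LINC00899, -0.10 to 0.35 for LINC01134, -0.15 to 0.056 for LINC01278, -0.37 to 0.16 for LINC01559, -0.20 to 0.059 for LINC02210 and -0.38 to 0.063 for LINC02334. With all 12 libraries in 1 model LINC00667, LINC00689 and LINC00899 were at 0.022, 0.0015 and 0.0062, with no count filter LINC00667 was at 0.015, and without replicate 3 of both SW lines LINC01547 was at 0.0013. Of the 704 alternative levels 38 moved by over 1 SD, all 38 with total counts in place of TMM-scaled totals.

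With the replicate number as a replicate block, 78 members passed between the SW lines and 11 with TGF-β (5 higher and 6 lower). Same-numbered libraries had correlations of their deviations from the group means of 0.02, 0.67 and 0.57 in the SW lines. In PEO4 these correlations were 0.29, -0.14 and 0.48. In neither comparison did all 3 numbers pair the samples. Replicates 2 and 3 of the SW lines, and replicates 1 and 3 of PEO4, each correlated best with their own number. No label says that a number marks a shared batch. Leaving out replicate 2 or replicate 3 of both SW lines, leaving out members with near-identical copies and taking the nearest measured gene were chosen after seeing the data. Depth limits members near the floor, of which 13 were not tested between the SW lines and 20 not in PEO4.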

Other observations

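LINC genes with fewer than 500 counts were not members, but some were tested in the same fits. Between SW620 and SW480, 76 of 197 passed the edgeR test (38.6%), 46 higher and 30 lower in SW620, against 30.5% of all genes tested (13.5% higher and 17.0% lower). With TGF-β in PEO4, 5 of 128 passed (3.91%), 4 higher and 1 lower, against 2.26% of all genes. LINC02520 had 17, 14 and 10 counts in control and 79, 97 and 58 with TGF-β (log2 fold change 2.41 ± 0.34 SE, edgeR adjusted p = 0.011). LINC01444 had 8, 9 and 18 counts against 45, 51 and 102 (2.39 ± 0.41, edgeR adjusted p = 0.0225). LINC01638 and LINC01711 rose by 2.71 and 2.88. LINC01968 fell, from 67, 94 and 61 counts to 18, 22 and 31 (-1.76 ± 0.31, edgeR adjusted p = 0.0245). The control and treated counts did not overlap in any of these 5, which were chosen as called in this same comparison and named after their values were seen.

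Of 28 long noncoding RNAs with descriptive names, such as MALAT1 and NEAT1, 25 were tested between the SW lines, with 6 higher and 5 lower in SW620 (median log2 fold change 0.09), against 13.5% and 17.0% of all genes. In PEO4, 24 were tested with TGF-β and 0 passed in edgeR (median -0.12), with 1 at an unadjusted p under 0.05, and DESeq2 and limma-voom also called 0.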
